A study of Drosophila melanogaster with 2 samples.

Results

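Binding of dmrt93B at autosomal promoters that start transcripts on a single strand was described from transcription factor ChIP-seq peaks of whole Drosophila melanogaster larvae. Members were the summits of the optimal peak list, off the X chromosome, that had at least 1 annotated transcription start site (TSS) within 500 bp with all such TSSs on the same strand. Of the 4159 optimal peaks, 851 met this rule (20.5%, 95% Wilson interval 19.3 to 21.7). They made up 851 of the 3301 autosomal peaks and 851 of the 1323 autosomal promoter peaks (64.3%, interval 61.7 to 66.9); the other 472 autosomal promoter peaks had TSSs on both strands. A summit was called upstream or downstream by its side of the nearest TSS, read along the gene. All intervals on shares cover counting error only.

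The libraries came from 1 group, dmrt93B-GFP, with 2 biological replicates of pooled male and female wandering larvae, at the third instar, that stably carried a dmrt93B transgene with GFP at its C-terminal end. Whole animals were used, so a peak can come from any larval tissue, and no group without the tagged protein was analysed here. Both sample descriptions call the library an input control, whereas the antibody label names dmrt93B and the labels list a control separately, so the values are those of the libraries labelled as dmrt93B ChIP. Each replicate had a relaxed list of 30000 peaks, the read depth is unknown, and values per replicate were taken from its 4159 strongest peaks.

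The promoter of a gene transcribed by RNA polymerase II holds the start site and, just upstream of it, a stretch where regulatory proteins bind and nucleosomes are often depleted. Many fly promoters lie back to back and start transcripts on both strands, which leaves no single upstream side; promoters with TSSs on 1 strand give each summit a clear side. dmrt93B belongs to the DM-domain family of zinc finger proteins, whose best-known fly member is Doublesex, the factor at the end of the somatic sex determination pathway.

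Summit windows of strong members on each side are printed first, because they show the low GC content described further on. They are the strongest of the 10 leading members of each side that lie on arms 2L, 3L and 3R and hold at most 30 bases of UTR, so some stronger members are not among them. Each window reaches 50 bases to either side of the summit and was taken from the NCBI Release 6 genome in dm6 coordinates; it is written 5′ to 3′ on the strand of the gene, with the longest run of A and T in capitals. CG14100 (chr3L:19590572-19590672, minus strand), Hsp27 (chr3L:9383853-9383953, plus strand), CG31145 (chr3R:23669807-23669907, minus strand) and CG13921 (chr3L:1746709-1746809, plus strand) are upstream members. The downstream members are lncRNA:CR44676 (chr3L:19560772-19560872, minus strand), lncRNA:CR46102 (chr3R:25738154-25738254, plus strand) and CG31612 (chr2L:21794910-21795010, minus strand).
CG14100: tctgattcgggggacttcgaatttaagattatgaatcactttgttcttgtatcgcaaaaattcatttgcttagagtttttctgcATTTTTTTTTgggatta
Hsp27: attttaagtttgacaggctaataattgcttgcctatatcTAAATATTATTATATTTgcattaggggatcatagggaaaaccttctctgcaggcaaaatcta
CG31145: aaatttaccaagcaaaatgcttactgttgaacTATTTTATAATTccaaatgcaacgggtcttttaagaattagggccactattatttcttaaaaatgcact
CG13921: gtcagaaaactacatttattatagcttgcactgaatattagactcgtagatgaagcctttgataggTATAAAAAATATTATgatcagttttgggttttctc
lncRNA:CR44676: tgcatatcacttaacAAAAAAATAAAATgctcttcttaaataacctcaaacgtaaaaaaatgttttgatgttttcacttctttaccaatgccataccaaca
lncRNA:CR46102: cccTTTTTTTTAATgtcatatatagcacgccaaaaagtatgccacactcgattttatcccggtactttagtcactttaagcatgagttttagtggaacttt
CG31612: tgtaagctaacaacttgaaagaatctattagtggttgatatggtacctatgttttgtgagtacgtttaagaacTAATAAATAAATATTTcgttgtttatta
The 4 upstream windows had a GC content of 29.7 to 31.7%, and the 3 downstream windows of 26.7 to 35.6%.

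A contrasting set comes from ribosomal protein and translation factor genes, whose members lay closer to the TSS and were richer in G and C. RpL23A (chr3L:1668694-1668794, minus strand) and RpL24 (chr2L:13395106-13395206, minus strand) are shown with the longest run of A and T in capitals. eEF1gamma (chr3R:29220081-29220181, plus strand) and RpL27 (chr3R:25685047-25685147, minus strand) are shown with the letters TATCGATA, the DNA replication-related element (DRE) known from promoters of replication and growth genes, in capitals.
RpL23A: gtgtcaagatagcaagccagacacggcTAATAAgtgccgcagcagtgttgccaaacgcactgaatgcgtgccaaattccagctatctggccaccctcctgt
RpL24: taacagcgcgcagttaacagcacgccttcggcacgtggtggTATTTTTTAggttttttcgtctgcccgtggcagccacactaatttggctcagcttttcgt
eEF1gamma: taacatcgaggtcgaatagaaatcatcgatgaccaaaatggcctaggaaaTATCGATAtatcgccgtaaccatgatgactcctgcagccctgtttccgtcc
RpL27: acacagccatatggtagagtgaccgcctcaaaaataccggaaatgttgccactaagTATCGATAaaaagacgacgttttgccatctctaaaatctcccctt
GC content was 53.5% at RpL23A, 50.5% at RpL24, 45.5% at eEF1gamma and 42.6% at RpL27.

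Most members lay upstream of their TSS. Of the 851 summits, 717 were upstream (84.3%, interval 81.7 to 86.5) and 134 were downstream (15.7%, interval 13.5 to 18.3); the downstream count includes 1 summit on the TSS base itself, at puc, which encodes a JNK phosphatase. With the same rule applied to each replicate, 653 of 775 summits of replicate 1 were upstream (84.3%), as were 781 of 955 of replicate 2 (81.8%), a mean of 83.0 ± 1.75% over replicates (SD, n = 2). The upstream majority was thus far larger than the difference between replicates. With 2 replicates the smallest exact two-sided p for a difference within replicates is 0.5, so none was tested.

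Upstream summits kept a distance from the start site. Their median offset was -199 bp (quartiles -308 and -118), and only 60 of 717 (8.37%) lay within 50 bp of the TSS. Their fullest 100 bp bin ran from -200 to -100 bp, with 218 summits, against 143 in the bin next to the TSS. Downstream summits were spread more evenly, with a median of 219.5 bp (quartiles 82.5 and 387), and 25 of 134 (18.7%) lay within 50 bp. Over all members the median offset was -169 bp, and the lists of replicates 1 and 2 gave -181 and -143 bp (-162 ± 26.9 bp, SD, n = 2).

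**Figure D1:**
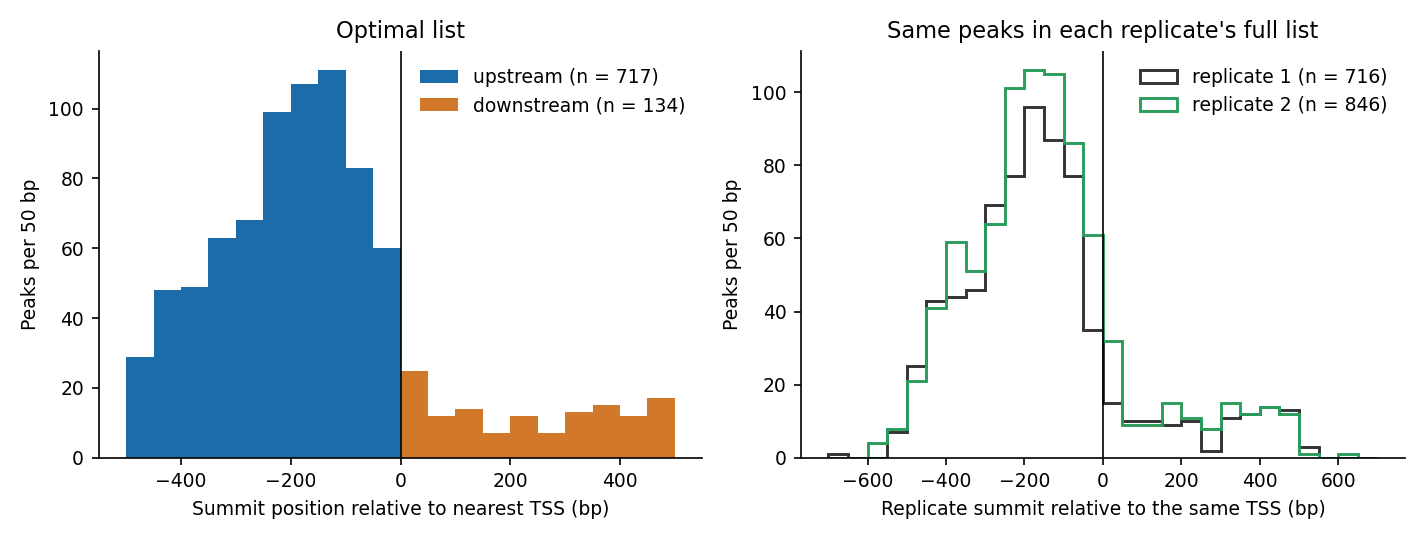
Number of members per 50 bp by summit position relative to the nearest TSS in bp, negative values lying upstream. The left panel shows the 717 upstream and 134 downstream summits of the optimal list and the right panel the nearest entries of the same members in the full lists, 716 in replicate 1 and 846 in replicate 2; in both panels the counts are highest between -300 and -50 bp.

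The summits of the replicates sat close together. Of the 851 members, 711 had an entry within 200 bp in both full replicate lists. Between the nearest entries the median distance was 26 bp, 516 of the 711 pairs (72.6%) lay within 50 bp, and 695 (97.7%) were on the same side of the TSS. Entries were matched within 200 bp of the member summit, which limits these distances. A member more than 200 bp from its TSS could not change side, and 419 of the 851 members lay within 200 bp. The share on the same side is thus partly built in.

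The 500 bp limit did not coincide with a gap in the offsets. The farthest upstream member, at Exn, lay at -497 bp with a signal of 232, and the first summit beyond the limit, at CG15172, lay at -502 bp with a signal of 362. Downstream, the last member was at lncRNA:CR43973 (498 bp, signal 209.5) and the first summit outside was at CG9896 (501 bp, signal 261). The weakest member, a summit 70 bp upstream of l(2)k01209, had a signal of 113.2, and the strongest pooled peak below the optimal list that met the other conditions, at Nep2, had 112.7.

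Signal, the peak strength written by the authors' caller, varied over a wide range but hardly with distance. Member signals ran from 113 to 4282 with a median of 236 (quartiles 157 and 434). Across the 851 members, which share both libraries and 1 peak list, signal and absolute offset had a Spearman rho of 0.00375, given as a description. Median signal per 100 bp bin was between 211 and 263 in 9 of the 10 bins, and it was 131 for the 19 summits 200 to 300 bp downstream. Upstream members had a median of 240.5 and downstream members of 211, a ratio of 1.14; replicates 1 and 2 had ratios of 1.16 and 1.22 (1.19 ± 0.0391, SD, n = 2). Both replicates gave a higher median upstream.

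**Figure D2:**
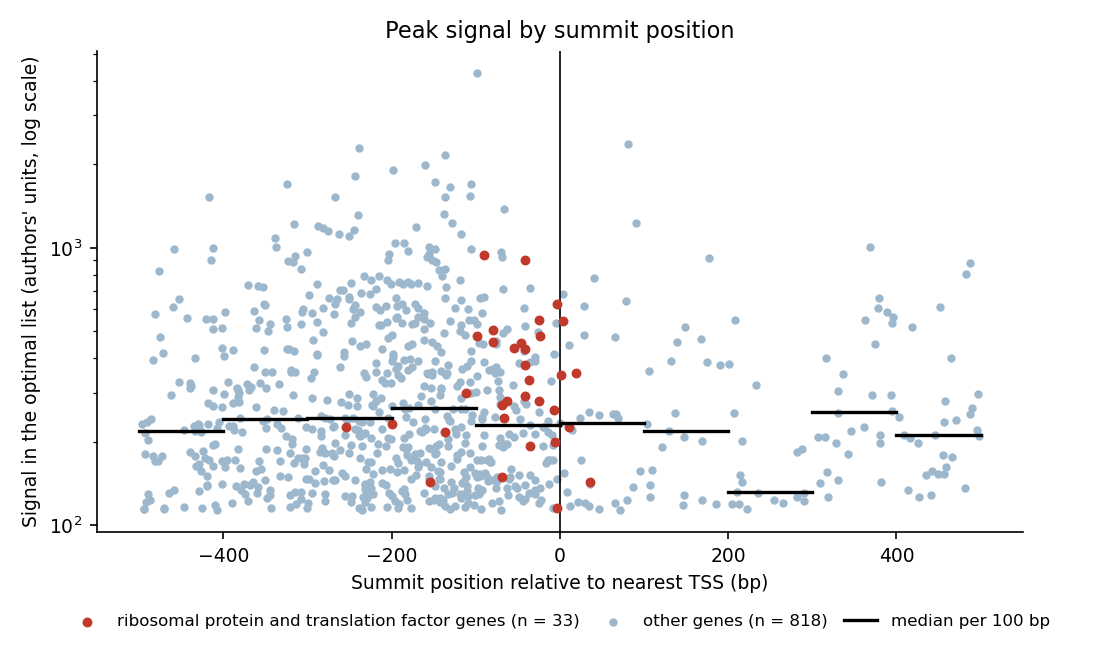
Signal of each of the 851 members in the optimal list (authors' units, log scale) against summit position relative to the nearest TSS in bp. Red points are the 33 members at ribosomal protein and translation factor genes, pale points the other 818, and black bars the median per 100 bp; the bars stay level except at 200 to 300 bp, and the red points gather next to the TSS.

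The members held a larger share of the strongest peaks. With the optimal list cut into 4 equal parts from strongest to weakest, 263, 211, 194 and 183 members were counted. The upstream share was 87.5%, 84.4%, 84.5% and 79.2% in those parts.

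The strongest upstream members were seen at a narrow range of ranks in both replicates. CG14100 (FBgn0036889), a protein-coding gene, had the strongest member, with a summit at 19590622 in the peak chr3L:19590398-19590832, 98 bp upstream of its only TSS. Its signal was 2664 in replicate 1 and 1641 in replicate 2, at ranks 1 and 2, and 4282 in the optimal list. CG1888 (FBgn0033421) came next, with a summit at 9547197 in the peak chr2R:9546980-9547414, 239 bp upstream of an internal TSS and inside its own transcribed region; its signal was 2296 and its ranks 12 and 7. mRpL41 (FBgn0034001), which encodes a protein of the mitochondrial ribosome, followed with a summit at 15217753 in the peak chr2R:15217548-15217962, 136 bp upstream, a signal of 2161 and ranks of 11 and 13. All 3 summits moved by less than 20 bp between the replicate lists.

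Stress, hormone and cell adhesion genes were among the next upstream members. Hsp27 (FBgn0001226), a small heat shock chaperone, had a summit at 9383903 in the peak chr3L:9383697-9384116, 160 bp upstream, with a signal of 1990 and ranks of 21 and 16. Sox14 (FBgn0005612), an HMG-box transcription factor induced by the steroid hormone ecdysone, had a summit at 23978558 in the peak chr2R:23978364-23978766, 243 bp upstream, with a signal of 1812 and ranks of 29 and 30. scb (FBgn0286785), an integrin alpha subunit, had a summit at 15248654 in the peak chr2R:15248355-15248795, 130 bp upstream, with a signal of 1656 and ranks of 35 and 48. At scb the replicates placed the summit apart, at -188 bp in replicate 1 and -120 bp in replicate 2. larp (FBgn0261618), a La-related RNA-binding protein, had its summit at 28326588 in the peak chr3R:28326400-28326803, in its own intron 324 bp upstream of an internal TSS, with a signal of 1692 and ranks of 38 and 45. The genes CG31145, CG13921 and CG18549 completed the 10 strongest, with signals of 1913, 1732 and 1704 and summits 198, 148 and 105 bp upstream.

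Downstream members were led by a gene for RNA decay in mitochondria. PNPase (FBgn0039846), a mitochondrial exoribonuclease, had a summit at 31404659 in the peak chr3R:31404470-31404857, 81 bp downstream of a TSS in a non-coding exon. Its signal was 1413 in replicate 1 and 956 in replicate 2, at ranks 6 and 9, and 2362 in the optimal list. GstE13 (FBgn0033381), a glutathione S-transferase, followed with a summit at 9122216 in the peak chr2R:9122013-9122377, 91 bp downstream, a signal of 1229 and ranks of 85 and 79. PNPase stood well above the next downstream member, and no other downstream member was among the 50 strongest optimal peaks.

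Non-coding RNA genes took 4 of the 10 leading downstream places, and 38 of all 134 downstream members (28.4%). lncRNA:CR44676 had its summit 368 bp downstream with a signal of 1006, lncRNA:CR46102 177 bp downstream with 920, lncRNA:CR44409 483 bp downstream with 803.5 and lncRNA:CR31840 4 bp downstream with 683. Their ranks were close between replicates, 115 and 151 for lncRNA:CR44676 for example, except at lncRNA:CR31840 with 656 and 137. The remaining leading members were CG31612 (487 bp, signal 882), CG9399 (41 bp, 778), CG12316 (79 bp, 644) and Eip75B (29 bp, 618), an ecdysone-induced nuclear receptor gene.

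Sides differed between kinds of gene. Of the 744 members nearest to a protein-coding gene, 651 were upstream (87.5%, interval 84.9 to 89.7); nearest to non-coding RNA genes, 63 were upstream and 38 downstream (62.4% upstream, interval 52.6 to 71.2). Replicates 1 and 2 had shares of 88.5% and 85.0% for protein-coding genes (86.8 ± 2.52%, SD, n = 2) and of 58.3% and 55.6% for non-coding RNA genes (56.9 ± 1.96%). The gap within the replicates was 30.2 and 29.4 percentage points. How well the annotated start sites of these RNA genes are placed was not tested. The other 6 members lay nearest to 3 small nuclear, 1 small nucleolar and 2 transfer RNA genes, of which tRNA:Lys-TTT-1-1 was the strongest (337 bp downstream, signal 350).

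The location of the summits followed their side, which the rule largely fixes because side is set by the TSS. Of the 717 upstream summits, 410 lay between genes and 227 inside the body of their own gene, upstream of an internal TSS; 258 in all were intronic, 48 lay in non-coding exons or UTRs and 1 in a coding exon. Of the 134 downstream summits, 126 were inside their own gene, with 75 in non-coding exons or UTRs, 47 in introns and 4 in coding exons. Over both sides 578 members (67.9%) lay nearest to the first TSS of the gene and 273 an internal one. Coding exons held only 5 members, at CG46304, CG42365, RpS15, Got2 and CG44812, all with signals under 160, named after their values were seen.

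The members belonged to 758 nearest genes, and most had a single peak. There were 677 genes with 1 summit, 71 with 2, 9 with 3 and 1 with 5. The 5 summits were at Rtnl1, which encodes a reticulon of the endoplasmic reticulum, each upstream of its nearest TSS, by 157 to 356 bp, with signals of 144 to 1100. Genes with 3 summits included Fkbp14, a peptidyl-prolyl isomerase gene, where the strongest summit (-136 bp, signal 1524) lay upstream and the next (389 bp, signal 586) downstream. They also included shn, which encodes a zinc finger factor of Dpp signalling, and Svil, the supervillin gene. The nearest TSS on the opposite strand was at a median of 3976 bp, with 117 members having one between the limit and 1000 bp.

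GC content was low at the members, most of all away from the start site. In the summit windows the mean was 33.5% (SD over windows 9.66, n = 851), with 33.2% upstream and 35.4% downstream. The lists of replicates 1 and 2 gave 32.8% and 35.7% (34.3 ± 2.06%, SD, n = 2). Split by side, downstream members were higher than upstream ones within each replicate, by 1.18 percentage points for replicate 1 and 2.30 for replicate 2 (1.74 ± 0.792, SD, n = 2). For comparison, windows were placed at the median offset of each side from all 14640 autosomal TSSs that have no opposite-strand TSS within 500 bp. Their mean was 38.2% at -199 bp and 45.2% at 219 bp, not matched to the distance of each member. The members were lower than all such TSSs on both sides, by more than the spread between replicates.

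The gap depended on the distance to the TSS. From -400 to -300 bp the members had 30.3% and all TSSs 38.6%, and from -200 to -100 bp the values were 31.6% at members and 38.5% at all TSSs. In the last 100 bp before the TSS the members reached 40.1%, against 42.1% at all TSSs. Downstream, from 400 to 500 bp, the members had 31.4% and all TSSs 45.1%, the widest gap of the 10 bins. In each replicate the summits within 100 bp upstream were richer in GC than those farther upstream, by 6.27 percentage points for replicate 1 and 9.77 for replicate 2 (8.02 ± 2.48, SD, n = 2).

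Around the upstream summits the low GC was local. In windows of 21 bp it was 32.2% at the summit, 40.4% at 400 bp before it and 47.5% at 400 bp after it. Centred on the TSS, upstream members had 33.9% at -200 bp, where all TSSs had 38.01%, yet 48.1% at -40 bp and 50.02% at 20 bp. At the TSS base itself the upstream members had 46.95% and all TSSs 43.4%. Their promoters thus combined an A and T rich stretch under the summit with a start region richer in G and C than all TSSs.

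**Figure D3:**
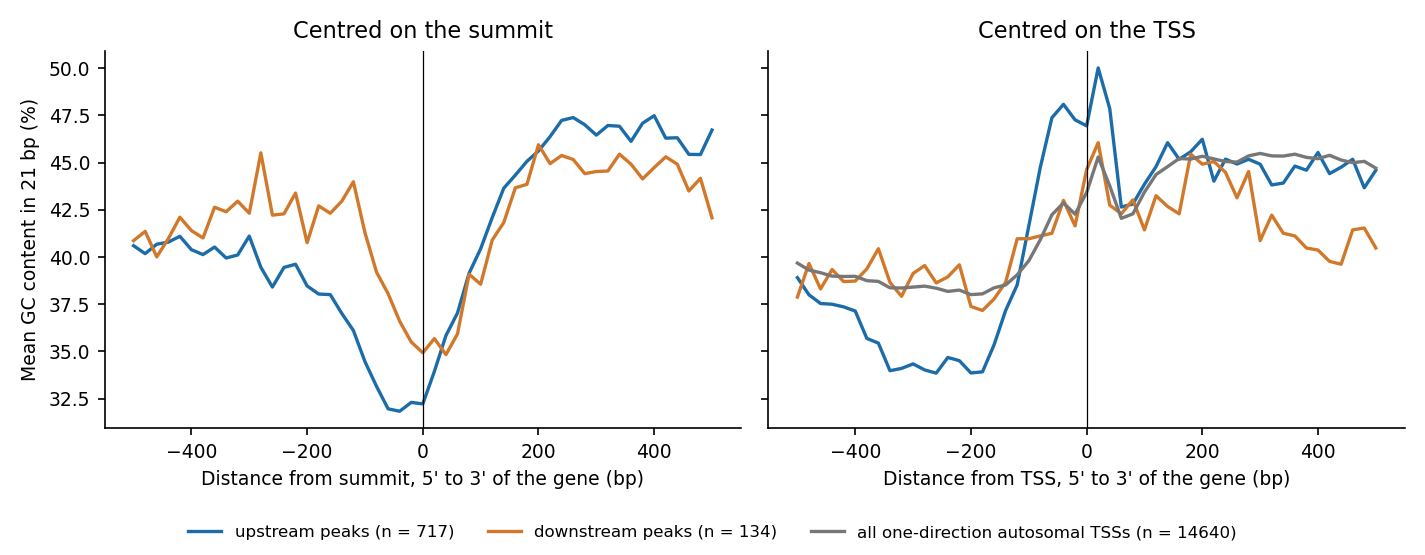
Mean GC content in 21 bp windows (percent, axis not starting at 0) by distance in bp from the summit (left) and from the TSS (right), read 5′ to 3′ of the gene. Blue is the 717 upstream and orange the 134 downstream members, and grey is all 14640 one-direction autosomal TSSs; blue dips at the summit and lies above grey just around the TSS.

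Windows poorer in GC had somewhat higher signals. With the members cut into 4 groups by GC content, the lowest group had a median signal of 301 and the highest of 206.5, with a Spearman rho of -0.179 over the 851 members, given as a description of peaks from 1 list. Entries missing from replicate 1 were also unevenly spread: 29 of 213 members of the lowest group had none in its full list, and 48 of 213 of the highest. Their part in the relation of GC content to signal was not tested.

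Short sequence motifs, searched on both strands, were found in few windows. No motif contains another, although neighbouring matches can share letters. The DRE (TATCGATA) was in 11 of 717 upstream windows (1.53%, interval 0.859 to 2.73), against 76 of 14640 windows placed 199 bp upstream of all one-direction TSSs (0.519%). It lay in 12 members in all, 9 of them in the last 100 bp before the TSS, so these shares are not at matched distances. The strongest was at Alg3 (-66 bp, signal 1378), which encodes a mannosyltransferase, and others were at p53, the splicing factor gene B52 and 6 ribosomal protein or translation factor genes. The ratio of the upstream share to that of all TSSs was 2.65 in replicate 1 and 4.93 in replicate 2.

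Letters known from DM-domain proteins were about as frequent as at all TSSs, within the counting intervals. The Doublesex site ACAATGT was in 12 upstream windows (1.67%, interval 0.960 to 2.90), against 1.65% at all TSSs, and the vertebrate DMRT letters TGTATCA were in 8 (1.12%, interval 0.566 to 2.19), against 1.01%. Downstream each was found in 1 window, at Got2 for ACAATGT and at psq for TGTATCA. The strongest upstream holders were CG31075 (signal 560.5) and CG11357 (signal 949). The absence of these letters from a window says nothing about binding of the factor.

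A and T rich letters were more frequent and G and C rich ones less. TATAAA was in 167 upstream windows (23.3%, interval 20.3 to 26.5), against 17.2% at all TSSs, and AAAAAA in 190 (26.5%, interval 23.4 to 29.9), against 21.4%. GAGAGAG was in 8 (1.12%), against 2.59%, and the E-box CAGCTG in 18 (2.51%), against 3.95%. The ratio to all TSSs was 1.29 and 1.33 in the replicates for TATAAA, 0.710 and 0.742 for GAGAGAG and 0.774 and 0.745 for CAGCTG. The homeodomain core TAATTA, with a ratio of 1.22, had 1.02 and 0.939 in the replicates, and the GATA site TGATAA, with 1.25, had 1.32 and 1.06. Base composition differs between these sets of windows, and its part in the shares was not tested. Motif 1 was in 2 members, at RpS23 and RpL27A, and Motif 6 in 2, the stronger of them at mRpL41. Upstream, the ratio to all TSSs was 0.972 for Motif 1, from 1 window, and 1.945 for Motif 6, from 2 windows. Downstream it was 54.6 for Motif 1, again from 1 window. Counts this small cannot show a link to any kind of gene.

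Among all 11749 autosomal protein-coding genes, 675 had a one-direction promoter peak, which is 5.75%; 5.14% had one upstream of their TSS and 0.792% downstream. The count was 595 in replicate 1 and 770 in replicate 2. A divergent promoter peak was found at 859 of the 11749 genes (7.31%), and 27 genes had both kinds. The shares below are read beside these backgrounds and were not tested. The lists were chosen with earlier results of these data known, so a high share can partly reflect that choice.

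Genes of the translation machinery held many members. One was found at 16 of 42 genes for large subunit ribosomal proteins (38.1%, interval 25 to 53.2), 9 of 29 for small subunit proteins (31.0%, interval 17.3 to 49.2) and 6 of 32 for translation factors (18.8%, interval 8.89 to 35.3). The counts were 11, 5 and 3 in replicate 1 and 17, 13 and 9 in replicate 2. A further 20, 7 and 3 genes of these lists had a divergent promoter peak only. In all 3 lists replicate 2 gave the higher count.

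Translation genes differed from the other members in position. Their 33 member summits had a median offset of -42 bp, and 28 of them (84.8%) lay within 100 bp of the TSS; the other 818 members had a median of -176 bp, with 152 (18.6%) so close. Per replicate the median was -53 and -37.5 bp for translation genes (-45.2 ± 10.96 bp, SD, n = 2) and -185 and -148 bp for the others (-166 ± 26.2 bp). Their mean GC content was 42.9% (SD over windows 8.13), against 33.2% in the other members and 38.5% in the 152 others within 100 bp. In the replicates it was 41.8% and 42.8% for translation genes, against 32.6% and 35.4% for the others. Both differences were larger than the spread between replicates. Of the 33 summits, 9 (27.3%) had no entry in the full list of replicate 1, against 126 of the other 818 (15.4%) and 38 of the 152 others within 100 bp of the TSS (25%), and the part of these missing entries in the counts was not tested.

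The leading ribosomal protein gene was RpL23A, with a summit 90 bp upstream, a signal of 941 and ranks of 182 in replicate 1 and 116 in replicate 2. RpL24 (-25 bp, signal 550, ranks 777 and 301), RpL30 (4 bp downstream, signal 545, ranks 636 and 401) and RpL8 (-80 bp, signal 504, ranks 662 and 466) came next in the large subunit. The small subunit was led by RpS4 (-3 bp, signal 625, ranks 460 and 309), RpS23 (-24 bp, 481.5, 756 and 560), RpS3A on chromosome 4 (-79 bp, 459, absent and 644) and RpS12 (-55 bp, 435, 906 and 618). All of these with an entry in both lists ranked higher in replicate 2. Among all translation gene summits in both full lists, 17 of 24 did, against 206 of 687 other members. Of those others that lay within 100 bp of the TSS, 47 of 113 did. RpL15 (1722 and 3688) and eIF5B (1164 and 1795) were among those that ranked higher in replicate 1. Translation elongation was represented by eEF1gamma (-41 bp, signal 901), eEF1alpha1 (-98 bp, 481.5), eEF5 (-41 bp, 377) and eEF2 (11 bp downstream, 225), and initiation by eIF5B (-112 bp, 299) and eIF4A (-136 bp, 217). The summits at eEF1alpha1, eEF2 and eIF4A had no entry in the full list of replicate 1.

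Each list for mitochondria and the proteasome held a single gene, and their intervals all include the background of 5.75%. Mitochondrial ribosomal protein genes had 1 of 59 (1.69%, interval 0.300 to 9.0), mRpL41, with 15 more having a divergent promoter peak only. Oxidative phosphorylation genes had 1 of 38, blw, the ATP synthase alpha subunit (-138 bp, signal 493; 2.63%, interval 0.466 to 13.5), with 6 more having a divergent one only. Proteasome genes had 1 of 28, the lid subunit Rpn11 (-251 bp, signal 181; 3.57%, interval 0.633 to 17.7), with 3 more having a divergent one only. Glycolysis had 3 of 11 (27.3%, interval 9.75 to 56.6), enolase Eno (-281 bp, 1176), lactate dehydrogenase Ldh (-172 bp, 629) and phosphoglycerate kinase Pgk (-244 bp, 561). The Rpn11 and Pgk summits had no entry in the full list of replicate 1.

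The ecdysone list had 8 of 20 genes (40%, interval 21.9 to 61.3). Each replicate's own list gave 7, which need not be the same genes. The strongest were the ABC transporter gene E23 (-274 bp, signal 660.5, ranks 357 and 346), Ldh, Eip75B and the bZIP repressor gene vri (-238 bp, 212, ranks 1918 and 3056). The receptor gene EcR itself had a weaker summit at -302 bp (signal 146, absent from replicate 1 and rank 3890 in replicate 2). No gene of this list had a divergent promoter peak only. Heat shock genes had 3 of 19 (15.8%, interval 5.52 to 37.6): Hsp27, the Hsp90 gene Hsp83 (-109 bp, 603) and Hsp26 (-127 bp, 261).

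Fat body and lipid genes had 5 of 15 (33.3%, interval 15.2 to 58.3), again 5 in each replicate. Lpin, a phosphatidate phosphatase (-267 bp, signal 1527, ranks 64 and 40), was the strongest. Hnf4, a nuclear receptor of lipid metabolism (-322 bp, 433), the lipid transfer particle gene Apoltp (-222 bp, 270) and the fatty acid synthase gene FASN1 (-226 bp, 236) followed. All 6 member summits of these 5 genes were upstream, Hnf4 having a second one at -171 bp (signal 151).

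Signalling genes had 10 of 45 (22.2%, interval 12.5 to 36.3) and Notch pathway genes 5 of 18 (27.8%, interval 12.5 to 50.9). The corepressor gene sbb (-92 bp, signal 581), the EGF receptor ligand gene spi (-295 bp, 581), its inhibitor gene aos (-308 bp, 531) and the Fos gene kay (-439 bp, 324) led the signalling list. numb, an inhibitor of Notch (-147 bp, 888, ranks 166 and 172), the bHLH repressor gene E(spl)m7-HLH (-357 bp, 547), the ubiquitin ligase gene neur (-201 bp, 325) and the coactivator gene mam (307 bp downstream, 208) led the Notch list. The neur summit had no entry in the full list of replicate 1. The Notch count was 2 in replicate 1 and 6 in replicate 2, a wider difference than in the ecdysone list.

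The remaining lists with a member had shares between 4.55% and 13.6%, with intervals that all include 5.75%. Chromatin regulators had 4 of 31 (12.9%, interval 5.13 to 28.9), the BTB zinc finger gene lola (-476 bp, signal 827), the GAGA factor gene Trl (132 bp downstream, 390), the BTB factor gene psq (-68 bp, 192) and the corepressor gene Sin3A (-129 bp, 143), and the Polycomb group 1 of 14 (7.14%, interval 1.27 to 31.5), jing (5 bp downstream, 154). Cell cycle genes had 3 of 32 (9.38%, interval 3.24 to 24.2), Dp, the partner of E2F (-236 bp, 686), the CDK inhibitor gene dap (-308 bp, 131) and E2f1 (-343 bp, 115). Muscle genes had 3 of 22 (13.6%, interval 4.75 to 33.3), the nesprin gene Msp300 (-350 bp, 620.5), the tropomyosin gene Tm1 (-284 bp, 219) and the actin gene Act87E (-429 bp, 133). The jing and Tm1 summits had no entry in the full list of replicate 1. Disc patterning genes had 1 of 22 (4.55%, interval 0.807 to 21.8), the homeobox gene so (-336 bp, 187). The list of DM-domain and sex determination genes had 1 of 12 (8.33%, interval 1.49 to 35.4), dsx itself, with its stronger summit 402 bp upstream at 7963188 in the peak chr3R:7962976-7963399, a signal of 266 and ranks of 1210 and 1876. Neuronal function had 0 of 16, cuticle proteins 0 of 26 and midgut digestion 0 of 30, which allow shares of up to 19.4%, 12.9% and 11.4% (upper Wilson bounds).

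**Figure D4:**
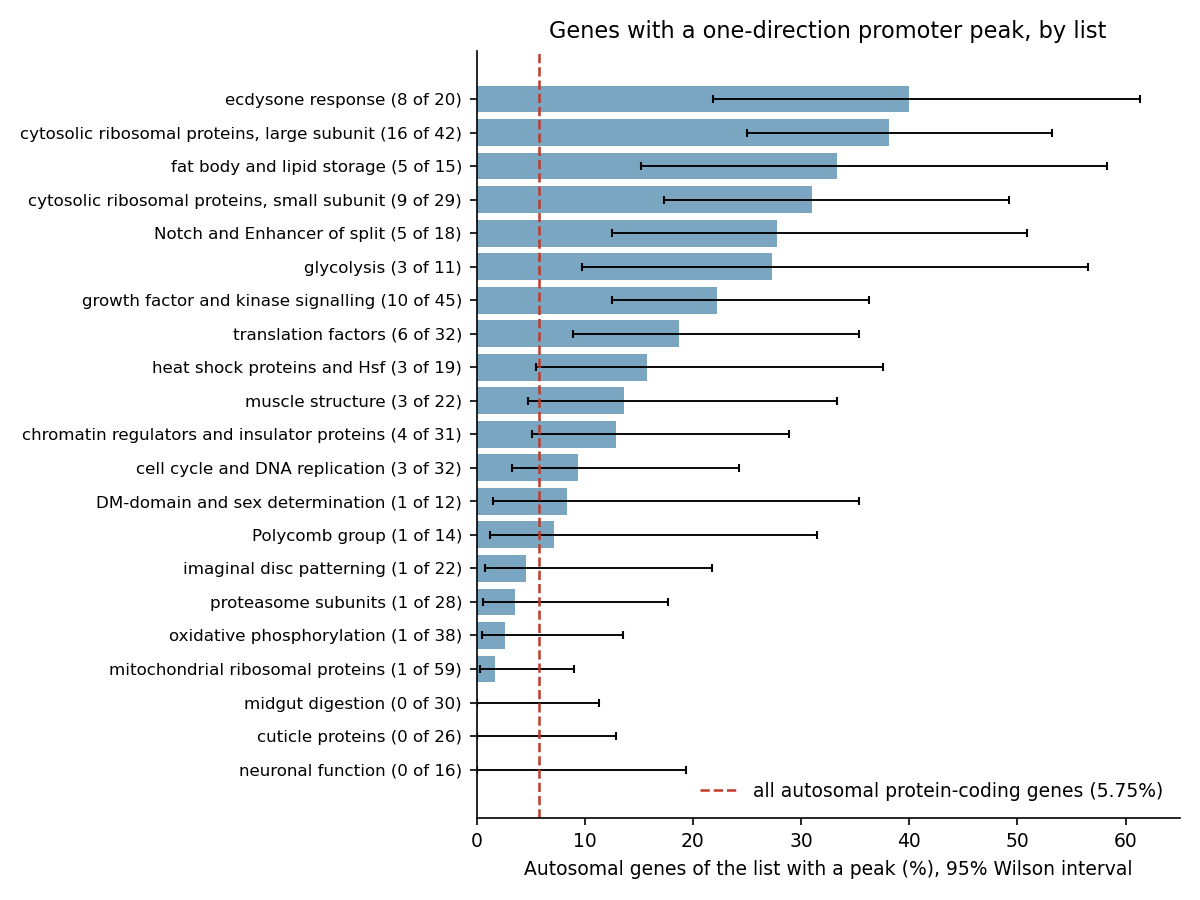
Share of the autosomal genes of each of the 21 lists with a one-direction promoter peak (percent), with 95% Wilson intervals for counting error, beside the 5.75% of all autosomal protein-coding genes. The ecdysone, large subunit ribosomal protein, fat body and small subunit ribosomal protein lists reach 31.0 to 40%.

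The members were found unequally in the replicates. Among the 4159 strongest peaks, replicate 1 had an entry no more than 200 bp away for 686 members (80.6%), replicate 2 for 731 (85.9%), and both for 584 (68.6%, interval 65.4 to 71.6). The full list of replicate 1 lacked 135 members (15.9%) and that of replicate 2 lacked 5, namely CG7328, CG6006, Calx, EndoA and CAP. The optimal list was made from both replicates, so part of this recovery is built in. The strongest member missing from replicate 1 was the first Rtnl1 summit at 2L position 4997631, with a signal of 1100 and rank 105 in replicate 2, followed by CG7841 (767.5, rank 180) and yps, a cold shock domain protein gene (718, rank 142).

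Missing entries were more frequent close to the start site, though unevenly so downstream. From -500 to -400 bp 7 of 77 members were absent from replicate 1, against 35 of 143 in the last 100 bp upstream and 10 of 37 in the first 100 bp downstream. In the following 100 bp bins downstream, 4 of 21, 2 of 19, 6 of 28 and 2 of 29 were absent. Absent members had a median offset of -119 bp and a median signal of 205.4, and those present had -177.5 bp and 243.5. For the 711 members in both lists, the ranks of the nearest entries had a Spearman rho of 0.835, as a description of peaks from 1 pair of libraries. Ranks of the nearest entries differed widely at E(spl)m3-HLH (258 in replicate 1 and 10275 in replicate 2), papi (6941 and 394) and the weaker summit of l(2)k01209 (6226 and 110). A nearest entry can belong to a neighbouring summit. The stronger l(2)k01209 summit lay at -316 bp (signal 1214), and the spi summits at -195 and -395 bp shared the replicate 1 rank 367. The part of such matches in these rank differences was not tested.

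**Figure D5:**
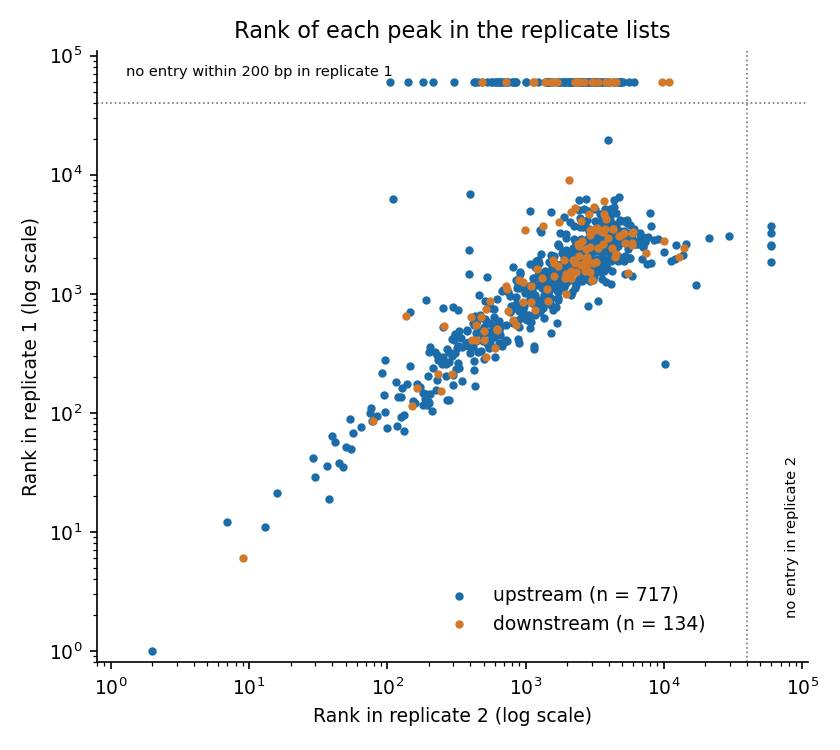
Rank of each of the 717 upstream (blue) and 134 downstream (orange) members in the full lists, with replicate 2 on the horizontal and replicate 1 on the vertical axis (log scales, 1 is the strongest). Points beyond the dotted lines mark the 135 members absent from replicate 1 and the 5 absent from replicate 2; most of the other 711 lie along the diagonal.

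Compared with divergent promoter peaks, the members lay farther from the TSS and were recovered more evenly. Their median offset was -169 bp, against -92 bp for the 472 divergent peaks; per replicate the values were -181 and -143 bp for members (-162 ± 26.9, SD, n = 2) and -97 and -84 bp for divergent peaks (-90.5 ± 9.19). A divergent promoter holds TSSs on both strands, which shortens the distance to the nearest one by construction, and how much of the difference this makes was not tested. The upstream share was 84.3% for members and 85.2% for divergent peaks, and within the replicates the difference, members minus divergent peaks, was -0.5 and -2.25 percentage points. Absence from replicate 1 was 135 of 851 for members (15.9%, interval 13.6 to 18.5) and 152 of 472 for divergent peaks (32.2%, interval 28.1 to 36.6). Median signal was 236 for members and 293 for divergent peaks.

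One-direction promoter peaks on the X lay somewhat farther upstream than the members. The members had 84.3% upstream and a median offset of -169 bp, against 83.3% and -195 bp for the 233 X peaks. Per replicate the median offsets were -181 and -143 bp for the members and -214 and -164 bp on the X, so the members lay closer to the TSS by 33 and 21 bp within the replicates (27 ± 8.49 bp, SD, n = 2). Median signal was 236 for the members and 267 on the X; it was 128 for the members and 151 on the X in replicate 1, and 105 for the members and 110 on the X in replicate 2. GC content was 33.5% for the members, 34.6% on the X, 31.7% at divergent autosomal peaks and 32.6% at autosomal peaks outside promoters.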

How the data were processed

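Peaks came from TF ChIP-seq of 2 biological replicates of 1 group. Per the labels, chromatin was sonicated and the files use dm6 coordinates. Relaxed lists for each replicate and for the pool, and an optimal list thresholded on irreproducible discovery rate, were deposited by the authors. The depth is unknown; for aligner, caller and threshold, names and values were not given in the sources used here. Peak strength, the signal column in the authors' units, was compared only within a list.

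Summits were set against TSSs of the Ensembl annotation, release 115, without pseudogenes and transposable elements. Values per replicate used its 4159 strongest peaks, and summits within 200 bp counted as the same peak. Windows reaching 50 bp to each side of the summit came from the NCBI Release 6 genome. Shares have 95% Wilson intervals; no test was run, because there is 1 group, peaks are not replicates, and an exact test of a difference within 2 replicates cannot go below a two-sided p of 0.5. Members and gene lists were chosen with earlier results of these data known; 642 of 650 symbols in 21 lists matched the annotation. A gene had a one-direction promoter peak where a member lay within 500 bp of any of its TSSs. Genes were named by rule: the 10 strongest members on each side recovered in both replicates, up to 4 listed genes per list, members at the limits, the strongest holder of each motif, genes with 3 or more summits; other names were chosen once values were known. Alternatives varied the TSS window, the annotation, the list, the overlap criterion, the window and the replicate. The scripts were checked on simulated data. Python 3.11.15, numpy 2.4.6, pandas 2.3.3, scipy 1.17.1 and matplotlib 3.10.9 were used.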

Additional observations from a re-analysis of the deposited data

How the results depend on the processing

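Under the alternatives run for each, most summits stayed upstream, the median offset stayed negative and the upstream to downstream signal ratio stayed above 1. Of 59 recomputed values 34 stayed within the spread allowed and 25 moved. The TSS window mattered most for the upstream share: it was 87.18% with 250 bp and 74.14% with 1000 bp, with an upstream to downstream signal ratio of 1.026 and 1.065, and the median offset was -116 bp with 250 bp. With protein-coding TSSs only the share was 87.09% and the ratio 1.048. In the stronger 1 in 2 of the optimal list there were 474 members, 86.08% upstream, at 413 genes. Leaving out each replicate in turn gave 775 to 955 members, 81.78 to 84.26% upstream, a median offset of -181 to -143 bp, a GC content of 32.8 to 35.72% and 595 to 770 genes. Recovery in both replicates was 63.92% with summits within 100 bp and 53.82% with 50% reciprocal overlap of the intervals. With windows reaching 30 and 100 bp to each side of the summit the upstream ratio to all TSSs was 1.505 and 1.24 for TATAAA, 1.29 and 1.399 for the DMRT letters, 0.3908 and 0.7864 for GAGAGAG and 0.5768 and 0.8302 for the E-box. It was 1.076 for the homeodomain core with 100 bp, and 0.7398 for the Doublesex site and 1.322 for AAAAAA with 30 bp. The causes of the moves were not tested. No paired analysis was possible because there is 1 group and no second group to pair with it; differences between sets of peaks within each replicate stand in the text. The read depth is unknown, so the precision behind a single peak's signal could not be given, and absence from a list is not absence of binding.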
